A study of Mus musculus with 13 samples.

Results

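The comparison described here is that of haematopoietic stem cells (HSCs) of low mitochondrial membrane potential (MMP low) from old mice with those from young mice. It rests on the 6 libraries titled Old MMP low (3) and Young MMP low (3), chosen by their titles out of 13 libraries in all. The other 7 libraries, 4 Young MMP high and 3 Old MMP high, share the fit and are used below to ask whether an age difference was of another size in MMP high HSCs. All mice were C57BL/6 JRj and untreated, the young ones aged 8 to 12 weeks and the old ones over 18 months. Marrow was taken from spine, femurs, tibias and iliac bones, enriched for Kit, and live cells positive for Kit, Sca1 and CD150 and negative for CD48 and lineage markers were sorted. Neither the dye nor the cut that separated MMP low from MMP high cells is given in the sources used here. The labels do not say whether replicates are separate animals or pools, and p-values therefore cover only how far these samples spread, which may be technical.

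HSCs sustain all blood lineages and are mostly quiescent. The membrane potential across the inner mitochondrial membrane is built by the respiratory chain and drives ATP synthesis, and dyes that follow it are used to divide HSCs. With age the HSC pool is known to expand while each cell repopulates less well, with an output shifted towards platelets and myeloid cells and away from lymphocytes. A recurring expression signature of aged HSCs contains adhesion and platelet genes such as Selp and Vwf, the stress regulator Nupr1, clusterin (Clu) and aldehyde dehydrogenase 1A1 (Aldh1a1).

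Total counts ran from 9351641 to 10574730 per MMP low library, and 18502 to 26063 symbols had a count. Levels are given in CPM (counts scaled to 1 common library size after TMM), always in the order of replicates 1, 2 and 3. The defining HSC markers were present, since Kit stood at 635, 688 and 674 CPM in young and at 570, 637 and 816 CPM in old libraries, and Procr, Mecom and Hlf had counts in all 6. Transcripts of mature cells, which the gate should remove, varied within both age groups. The summed level of 23 granulocyte and monocyte markers ran from 8170 to 52600 CPM in young and from 5800 to 56100 CPM in old libraries, and that of 14 erythroid markers from 3580 to 17800 and from 4620 to 29900 CPM. Among the 6 libraries, Young MMP low 3 stood apart on the first principal component (34.3% of the variance) and Young MMP low 1 on the second (26.5%). The nuclear RNA Malat1 had 1218 counts in Young MMP low 1 and between 12674 and 17354 in each of the other five. In bulk RNA, fewer cells of a type and less RNA per cell cannot be told apart.

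The sequence before the start site is shown for 2 genes, Phgdh among the genes that fell and Mcm6 among the replication genes. Phgdh lost its call in 11 of the 13 fits that leave out 1 library, and Mcm6 was not called, as described below. Phgdh encodes the first enzyme of serine synthesis and was the most precisely measured of the genes that fell. Mcm6 encodes a subunit of the helicase that opens DNA at replication origins and had the smallest p in the replication list. Both lines are read 5' to 3' on the gene's own strand, the minus strand, in RefSeq's build GRCm38.p6. For Mcm6 the window holds the 250 bases before the RefSeq start site, at chr1:128359706-128359955. For Phgdh it is chr3:98339991-98340219, with the 21 bases nearest the start left out because they lie in a GENCODE exon. Capitals mark matches, on either strand, to TTTNNCGC (an E2F-type element) in the window of Mcm6, and that of Phgdh was searched for TGATGNAA (an ATF4-type element).
Phgdh: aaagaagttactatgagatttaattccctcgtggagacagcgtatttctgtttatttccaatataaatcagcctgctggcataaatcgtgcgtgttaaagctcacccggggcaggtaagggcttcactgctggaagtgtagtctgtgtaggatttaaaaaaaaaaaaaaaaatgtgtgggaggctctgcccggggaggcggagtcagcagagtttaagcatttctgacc
Mcm6: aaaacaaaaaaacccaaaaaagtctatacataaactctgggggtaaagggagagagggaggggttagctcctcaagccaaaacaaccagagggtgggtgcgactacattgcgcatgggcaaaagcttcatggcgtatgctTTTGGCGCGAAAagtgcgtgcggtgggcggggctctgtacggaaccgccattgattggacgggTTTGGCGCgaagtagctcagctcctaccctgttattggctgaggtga
The Phgdh window held 0 matches to the ATF4-type letters, and 3.45% of all 32851 promoter windows of 250 bases held such a match, so a match is a description and not a site. The Mcm6 window held 3 matches to the E2F-type letters, of which a pair overlap on opposite strands, and 4.28% of all windows held at least 1. Of the 20 called genes with a window, Nupr1 alone held the ATF4-type letters, and Mycn, Rbpjl and Gm10419 held the E2F-type letters. All 250 bases of the Nupr1 window lie in exons of the GENCODE annotation, which starts the gene further out than RefSeq, so that window is not shown.

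Across all expressed genes, edgeR called few genes by age in MMP low HSCs beyond the spread of the libraries, and most were higher in old cells. With 3 libraries against 3, genes that were not called may still differ. The count also depends on the method, since DESeq2 on the same genes called 197. At a Benjamini-Hochberg adjusted p of 0.05 from edgeR's quasi-likelihood test, 30 of 17125 genes were called (0.175%). In old cells 25 of them were higher (0.146%) and 5 lower (0.0292%). At an unadjusted p of 0.05 there were 1229 genes (7.18%). At an adjusted p of 0.01 there were 10, and at 0.2 there were 102, 73 of them higher. The median log2 fold change of all genes was 0.03, with quartiles of -0.24 and 0.36, and 52.8% of genes lay above 0. Old libraries lay entirely above the young ones for 6.52% of all genes and entirely below for 5.63%, and the 30 called genes were all among these. Without 1 MMP low library the count of calls ranged from 10 (without Old MMP low 2) to 35 (without Young MMP low 2). It was 17 without Young MMP low 1 or 3, 18 without Old MMP low 1 and 16 without Old MMP low 3. The count was also 46 without Young MMP high 4, 18 without Old MMP high 1 or 2 and 17 without Old MMP high 3. The MMP high libraries share the estimate of the spread, and each fit filtered the genes anew. Without a library from a group of 3, genes needed their counts in fewer libraries to be tested. Which of these moved the counts was not tested.

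**Figure D1:**
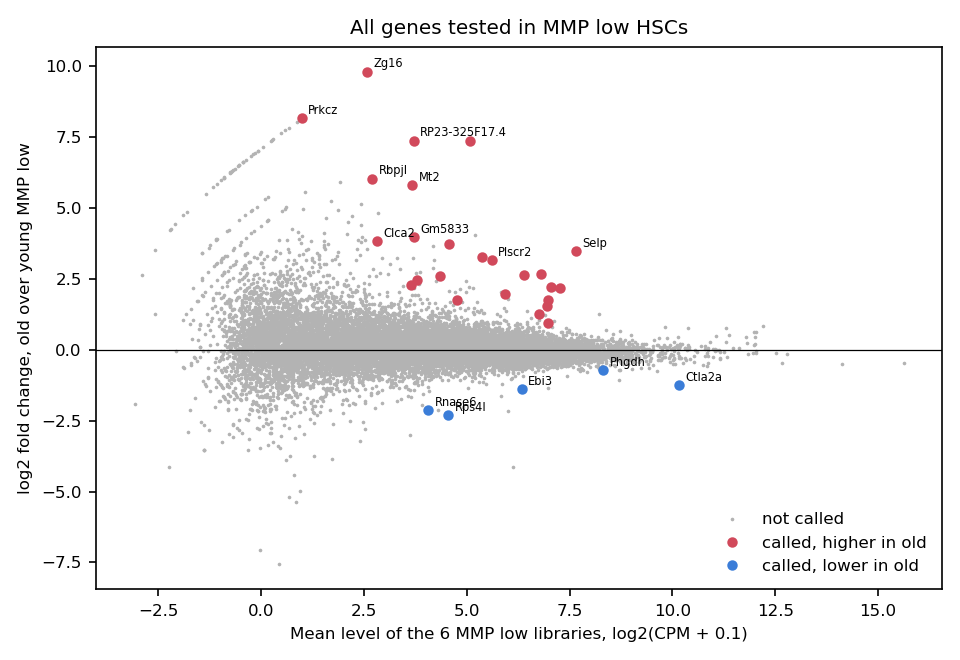
Each point is 1 of the 17125 genes tested, with its mean level over the 6 MMP low libraries on the x axis (log2 of CPM plus 0.1) and the fitted log2 fold change of old over young on the y axis. Genes called higher in old cells (25, red) lie at 0.94 or more, and the 5 genes called lower (blue) lie between -2.30 and -0.72.

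Of the called genes, 10 were called again in every one of the 13 fits that leave out 1 library: Nupr1, Selp, its antisense transcript Gm16587, Rps4l, Sbspon, RP23-325F17.4, Plscr2, Clca1, Clca2 and Mt2. The other 20 each lost the call without at least 1 library, and these libraries are named with the genes. Such a fit also filtered the genes anew, so the genes tested and the adjustment could change along with the library. The part of each in a lost call was not tested. A fit of the 6 MMP low libraries alone called 21 genes, 16 of the 30 among them, including those 10. The 14 not called there had edgeR adjusted p-values from 0.0977 (Arhgef28) to 0.358 (Phgdh). They were Arhgef28, Phgdh, Gm5833, Gstm2, Abca4, Prkcz, Mt1, Mycn, Rnase6, Clu, Cysltr2, Oxr1, Ebi3 and Aldh1a1. Zg16 and Prkcz were at 0 in all young libraries, so their fitted fold changes in the plots depend on the prior count. In the plot of library values below, no old point of a called gene reaches into the young range.

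**Figure D2:**
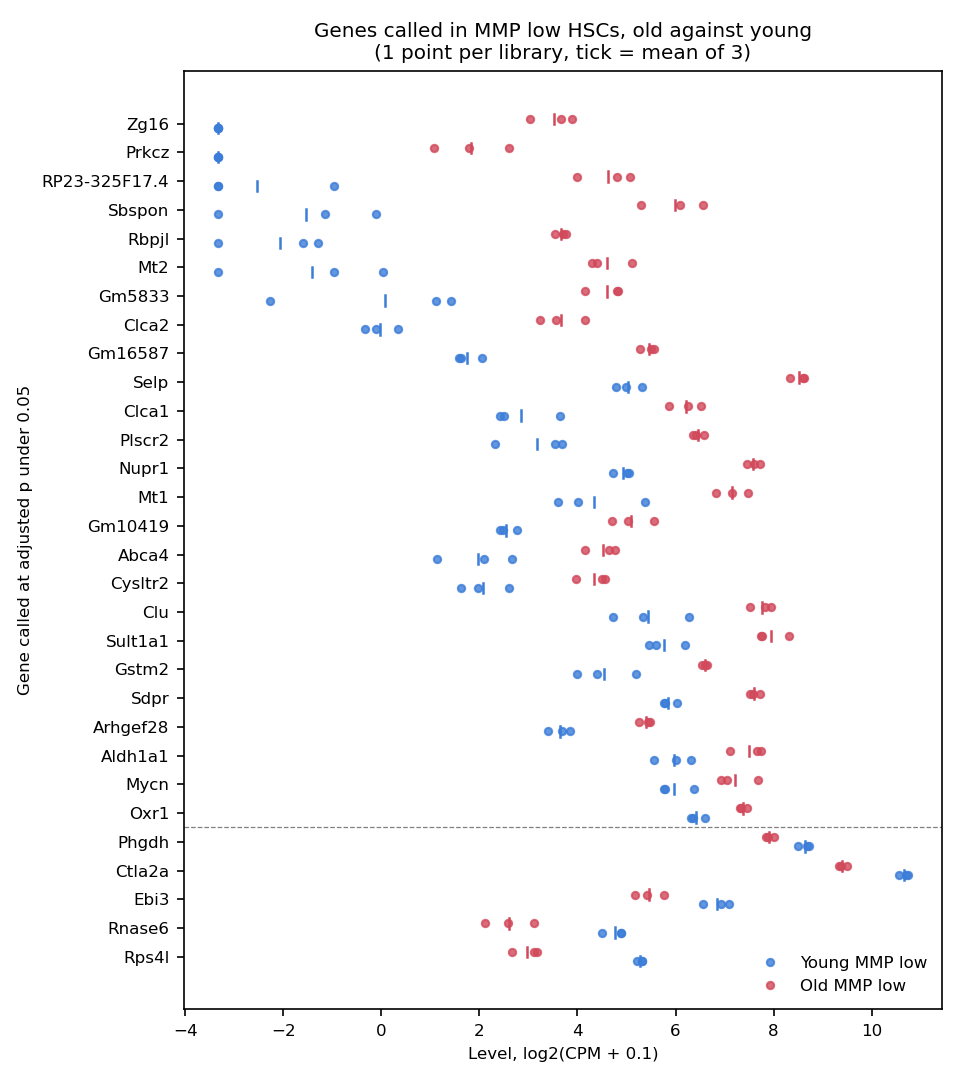
The x axis gives the level of each called gene in each MMP low library as log2 of CPM plus 0.1, with a tick at the mean of 3 libraries (blue young, red old). The dashed line parts the 25 genes higher in old cells from the 5 lower ones, and the groups do not overlap for any of the 30.

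Nupr1, on chromosome 7 from 126623249 to 126630861, stood at 32.9, 26.4 and 32.4 CPM in young and at 175, 210 and 193 CPM in old libraries. Every old library was thus far above every young one, a 6.31-fold difference (log2 2.66 ± 0.22 SE, n = 3 against 3, edgeR adjusted p = 0.000123). When 1 library was left out its adjusted p stayed between 0.000144 and 0.00144. A pair of further called genes lie close by on the same strand. Sult1a1, a sulfotransferase for phenols, lies 42004 bases away, and Zg16, which encodes a lectin-like protein of secretory granules, lies 419295 bases from Nupr1. Sult1a1 stood at 73.5, 44.1 and 48.5 CPM in young and at 218, 320 and 216 CPM in old libraries (log2 2.18 ± 0.32, edgeR adjusted p = 0.0111). It missed the threshold without Young MMP low 2 (0.0502), Young MMP low 3 (0.0650) or Old MMP low 2 (0.0717). Zg16 had no count in any young library and 8.10, 14.6 and 12.6 CPM in old ones. Against the limit that 3 counts over the young group set (0.108 CPM) this is at least 109-fold higher (edgeR adjusted p = 0.0390). Zg16 was called only without Young MMP high 1, 3 or 4, and its adjusted p was 0.0711 to 0.149 without any other library.

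Among the genes that rose, Selp reached the highest level in old cells. Selp encodes P-selectin, the receptor by which platelets and endothelium bind leukocytes. It stood at 39.7, 27.7 and 31.7 CPM in young and at 321, 386 and 394 CPM in old libraries, an 11.1-fold rise (log2 3.47 ± 0.36, edgeR adjusted p = 0.000868). The antisense transcript Gm16587, on chromosome 1 from 164143432 to 164146366 inside Selp, went from 3.31 ± 0.66 to 43.8 ± 4.53 CPM (SD, n = 3; edgeR adjusted p = 0.00235). A second one, Gm16548, had a log2 fold change of 2.88 and an edgeR adjusted p of 0.0550. The strand setting of the counting is not given, so reads of Selp and of these antisense transcripts cannot be told apart.

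Sbspon, on chromosome 1 from 15853862 to 15892722, encodes a protein with somatomedin B and thrombospondin domains. It was close to absent in young libraries at 0.349, 0.823 and 0 CPM and stood at 67.7, 94.6 and 39.1 CPM in old ones (edgeR adjusted p = 0.000868). Clca1 and Clca2 belong to the family of calcium-activated chloride channel regulators. Clca1 was at 5.59, 12.4 and 5.23 CPM in young and 92.3, 76.0 and 58.0 CPM in old libraries (log2 3.28 ± 0.36, edgeR adjusted p = 0.000876). Clca2 was at 0.698, 0.823 and 1.17 CPM in young and 17.8, 11.7 and 9.35 CPM in old libraries (log2 3.83 ± 0.46, edgeR adjusted p = 0.00189). Both names are used for different genes in different annotations, so no position is given, and family members may share reads.

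Cysltr2, a receptor for cysteinyl leukotrienes, rose from 4.27 ± 1.54 to 20.6 ± 4.38 CPM (SD, n = 3; edgeR adjusted p = 0.0286). It missed the threshold without Young MMP low 1 (0.149), Young MMP low 2 (0.0797), Old MMP low 1 (0.121), Old MMP low 2 (0.146), Old MMP low 3 (0.0508) or Old MMP high 3 (0.0626). Of 30 adhesion and platelet surface receptor genes tested, Selp alone was called. The list's median was 0.01. Over the members that each fit tested, it ran from -0.02 (without Old MMP high 1 or 3) to 0.17 (without Young MMP low 1). Among the other members, the junction protein Jam2 had 11.1, 13.1 and 13 CPM in young and 56.8, 48.5 and 46.6 CPM in old libraries (log2 2.03 ± 0.49, edgeR adjusted p = 0.181). Vwf, the platelet and endothelial adhesion protein, had 52.6, 37.1 and 103 CPM in young and 156, 221 and 189 CPM in old libraries (log2 1.55, edgeR adjusted p = 0.186). Cd34, a sialomucin that marks progenitors, pointed the other way, with 215, 204 and 264 CPM against 96.4, 116 and 150 CPM (log2 -0.91, edgeR adjusted p = 0.285). None of these 3 passed the test, although their groups do not overlap.

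Genes of the membrane and of caveolae, the small invaginations of the plasma membrane, included a further pair of increases. Plscr2, of the phospholipid scramblase family, stood at 4.89, 11.5 and 12.8 CPM in young and at 85.3, 82.3 and 95.2 CPM in old libraries (8.96-fold, log2 3.16 ± 0.36, edgeR adjusted p = 0.00123). Sdpr, the older name of the caveola coat gene Cavin2, stood at 65.0, 54.8 and 53.9 CPM in young and at 183, 211 and 190 CPM in old libraries (3.36-fold, edgeR adjusted p = 0.0101). The call of Sdpr was lost without Young MMP low 3 (0.0638) or Old MMP low 2 (0.0671). They were the 2 members called of 15 tested, and the list's median was 0.14 (0.07 without Old MMP low 3, 0.25 without Young MMP low 1 and 0.30 without Old MMP low 2). Ehd3, a membrane-remodelling ATPase, came close, with 11.2, 14.8 and 12.4 CPM against 41.9, 56.8 and 75.8 CPM (edgeR adjusted p = 0.0790). Abca4, a lipid transporter best known from photoreceptors, rose from 4.18 ± 2.09 to 23.2 ± 4.98 CPM (SD, n = 3; edgeR adjusted p = 0.0245). It was lost without Young MMP low 1 (0.0673), Young MMP low 3 (0.106), Old MMP low 2 (0.123) or Old MMP low 3 (0.0950).

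Metallothioneins are small cysteine-rich proteins that bind zinc and other metals, and both Mt1 and Mt2 rose. Mt2, on chromosome 8 from 94172664 to 94173568, had 0.931, 0.411 and 0 CPM in young and 34.6, 21.0 and 19.4 CPM in old libraries (edgeR adjusted p = 0.00979). Its neighbour Mt1, 5514 bases away, had 41.4, 12.1 and 16 CPM in young and 177, 142 and 113 CPM in old libraries (6.21-fold, edgeR adjusted p = 0.0390). Both lie far above the young range in every old library. Mt1 was called only when Young MMP low 1 or Young MMP high 4 was left out, and its adjusted p was 0.0662 to 0.190 without any other library, the highest without Young MMP low 3. The remaining 7 tested genes of metallothionein and zinc transport were not called.

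Gstm2, a mu-class glutathione transferase, stood at 15.8, 21.1 and 36.6 CPM in young and at 93.6, 96.4 and 100.5 CPM in old libraries (3.95-fold, edgeR adjusted p = 0.0101, but 0.0509 without Old MMP low 2). Its relatives were not called, and reads could be shared among them. Gstm1 had a log2 fold change of 0.26, Gstm3 of 0.28, Gstm4 of -0.04 and Gstm5 of 0.13. Gstm7 had one of 0.455 (edgeR adjusted p = 0.895). Gstm6 had one of 0.889, with the old libraries entirely above the young ones (edgeR adjusted p = 0.931). Of 33 glutathione and antioxidant genes tested Gstm2 was the one called, and the list's median was -0.03. That direction depends on single libraries, since the median was -0.11 without Old MMP low 1 and 0.09 without Old MMP low 3. Catalase (Cat), which breaks down hydrogen peroxide, had 155, 134 and 147 CPM in young and 69.6, 100 and 90.6 CPM in old libraries (log2 -0.75, edgeR adjusted p = 0.173). Oxr1, an oxidation resistance gene that is not on that list, rose from 86.0 ± 9.80 to 165 ± 9.48 CPM (SD, n = 3; 1.92-fold, edgeR adjusted p = 0.0245). Oxr1 was called without Young MMP low 2 or any 1 of the Young MMP high libraries, and without any other library its adjusted p was 0.0516 to 0.118, the highest without Old MMP low 3.

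Aldh1a1, which oxidises retinaldehyde and other aldehydes, stood at 79.6, 64.6 and 46.9 CPM in young and at 214, 203 and 139 CPM in old libraries (2.91-fold, edgeR adjusted p = 0.0390). Clu encodes clusterin, a secreted chaperone, and stood at 76.9, 26.4 and 40.1 CPM in young and at 246, 228 and 182 CPM in old libraries (4.58-fold, edgeR adjusted p = 0.0390). Both separate the ages without overlap, but neither call is firm. Aldh1a1 was called only without Old MMP low 3 or Young MMP high 4, with an adjusted p of up to 0.157 (without Old MMP low 2) otherwise. Clu was called only when Young MMP low 1 or Young MMP high 1, 3 or 4 was left out, with an adjusted p of up to 0.158 (without Young MMP low 3) otherwise.

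Regulators of transcription and signalling that rose included Mycn, Rbpjl, Prkcz and Arhgef28. Mycn, of the Myc family of growth regulators, stood at 54.0, 82.6 and 55.2 CPM in young and at 132, 122 and 205 CPM in old libraries (2.39-fold, edgeR adjusted p = 0.0390). Rbpjl encodes a relative of the Notch effector RBPJ and is best known from the pancreas. It had 0.233, 0.309 and 0 CPM in young and 13.5, 12.9 and 11.6 CPM in old libraries (edgeR adjusted p = 0.0390). Rbpjl overlaps Matn4 on the opposite strand (log2 3.24, edgeR adjusted p = 0.302), and without the strand setting their reads cannot be told apart. Prkcz, the atypical protein kinase C zeta, had no count in young libraries and 2.00, 6.01 and 3.36 CPM in old ones. That is at least 35-fold higher than the limit of 3 counts over the young group (edgeR adjusted p = 0.0209). Arhgef28 rose from 12.5 ± 1.93 to 42.0 ± 3.52 CPM (SD, n = 3; edgeR adjusted p = 0.0390). Mycn was called only when Young MMP low 2 or Young MMP high 1 or 4 was left out (up to 0.189 otherwise, without Young MMP low 3). Rbpjl was called without any 1 Young MMP high library (up to 0.160 otherwise, without Young MMP low 1), and Arhgef28 only without Young MMP high 1 or 4 (up to 0.182, without Young MMP low 1). Prkcz was lost without Young MMP low 1 (0.0710), Young MMP low 3 (0.0638), Old MMP low 2 (0.121) or Old MMP low 3 (0.0650).

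The remaining called transcripts that were higher are 3 with clone or predicted-gene names, RP23-325F17.4, Gm10419 and Gm5833. RP23-325F17.4 had 0, 0.411 and 0 CPM in young and 27.9, 33.6 and 15.9 CPM in old libraries (edgeR adjusted p = 0.00123), and has no match in the annotation used. Gm10419, a long non-coding RNA, rose from 5.79 ± 0.783 to 35.1 ± 10.9 CPM (SD, n = 3; edgeR adjusted p = 0.0101). Gm5833, another, rose from 1.57 ± 1.30 to 24.6 ± 5.97 CPM (SD, n = 3; edgeR adjusted p = 0.0413). Gm10419 was lost without Young MMP low 1 (0.0566), Young MMP low 3 (0.0559) or Old MMP low 2 (0.0671). Gm5833 was called only when Young MMP low 3 or Young MMP high 4 was left out (up to 0.176 otherwise, without Old MMP low 2).

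Of the 5 genes that fell, Rps4l changed the most and had the narrowest young range. It stood at 37.1, 40.0 and 39.6 CPM in young and at 8.5, 6.21 and 8.93 CPM in old libraries, 4.94-fold lower (log2 -2.30 ± 0.24, edgeR adjusted p = 0.000868). Rps4l, on chromosome 6 from 148354656 to 148355598, is annotated as a transcribed processed pseudogene related to the ribosomal protein gene Rps4x, so reads may be shared. Rps4x itself was not called, with 689, 562 and 451 CPM in young and 889, 645 and 441 CPM in old libraries. Rnase6 encodes an antimicrobial ribonuclease. It had 22.5, 29.5 and 29.5 CPM in young and 8.5, 4.20 and 5.88 CPM in old libraries (log2 -2.13 ± 0.31, edgeR adjusted p = 0.0101), and lost the call without Old MMP low 2 (0.0757) or Old MMP low 3 (0.0796).

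Ctla2a, an inhibitor of cathepsin-type proteases, was the most abundant gene that fell. It stood at 1701, 1501 and 1655 CPM in young and at 728, 660.4 and 642 CPM in old libraries, 2.39-fold lower (edgeR adjusted p = 0.0390). Its relative Ctla2b, with 374, 336 and 353 CPM against 232, 253 and 203 CPM, was not called (log2 -0.63, edgeR adjusted p = 0.421). Ctla2a was called without any 1 Young MMP high library, and without any other library its adjusted p was 0.0508 to 0.176, the highest without Old MMP low 2. Ebi3 encodes a subunit of the cytokines IL-27 and IL-35. It stood at 135, 93.7 and 121 CPM in young and at 54.1, 36.0 and 42.9 CPM in old libraries, 2.63-fold lower (edgeR adjusted p = 0.0408). An antisense transcript that overlaps it, Gm16712, had a log2 fold change of -1.36 (edgeR adjusted p = 0.1), and the reads of both cannot be told apart without the strand setting. Ebi3 was called when Young MMP low 2 or Young MMP high 1, 2 or 4 was left out, and its adjusted p reached 0.291 otherwise (without Old MMP low 2).

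Phgdh, on chromosome 3 from 98313170 to 98339990, stood at 422, 362 and 411 CPM in young and at 235, 229 and 259 CPM in old libraries. All old libraries lay below all young ones, by 1.65-fold (log2 -0.72 ± 0.13, edgeR adjusted p = 0.0390). The call held only when Young MMP low 2 or Young MMP high 4 was left out, and the adjusted p reached 0.242 without Old MMP low 2. Phgdh was the one member called of 18 genes of serine and one-carbon synthesis, whose median was -0.21 (-0.44 without Old MMP low 3). At an unadjusted p of 0.05, 5 members were lower and 0 higher, where 3.18% of all genes were lower and 3.99% higher. The summed level of the list was 2080 to 2200 CPM in young and 1520 to 1890 CPM in old libraries. Psat1, the next enzyme after Phgdh, had 98.8, 81.4 and 90.2 CPM against 67.5, 47.9 and 69.1 CPM (log2 -0.55, edgeR adjusted p = 0.411). Shmt1, which passes the serine carbon on to folate, had a log2 fold change of -0.65 (edgeR adjusted p = 0.401), and the methylation cycle enzyme Ahcy one of -0.71 (edgeR adjusted p = 0.440).

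Genes of DNA replication formed the list with the lowest median among those plotted by list, though none of the 40 was called. Their median log2 fold change was -0.47, and 37 of 40 lay below 0, while 52.8% of all genes lay above 0. At an unadjusted p of 0.05, 21 were lower and 0 higher, against 3.18% and 3.99% of all genes. The old libraries lay entirely below the young ones for 16, against 5.63% of all genes. The summed level of the list was 3950 to 5330 CPM in young and 2620 to 3660 CPM in old libraries. Mcm6, whose sequence before the start site is printed above, stood at 594, 514 and 480 CPM in young and at 308, 263 and 385 CPM in old libraries (log2 -0.73 ± 0.15, edgeR adjusted p = 0.0938). Cdc7, the kinase that fires origins, stood at 41.8, 33.4 and 47.8 CPM in young and at 22.2, 19.5 and 21.5 CPM in old libraries (log2 -0.96 ± 0.20, edgeR adjusted p = 0.1). The clamp loader subunit Rfc2 had a log2 fold change of -0.80 (edgeR adjusted p = 0.110), and the helicase subunit Mcm3 one of -0.57 (edgeR adjusted p = 0.234). DESeq2 on the same genes called 5 members lower, among 53 of all 17125 genes. Without Young MMP low 1 the median was -0.30 and 7 members were lower at an unadjusted p of 0.05, and without Old MMP low 2 there were 11. Of the 32 members with a promoter window, 10 held the E2F-type letters (Cdc6, Dtl, Gins3, Mcm5, Mcm6, Mcm7, Orc1, Pola1, Rfc3 and Uhrf1), against 4.28% of all windows. Of those 10, only Dtl, Mcm6, Mcm7 and Rfc3 were lower at an unadjusted p of 0.05, and Pola1 had a log2 fold change of 0.05. Cdc7 and Mcm3 were lower at that threshold with no match in their windows. Whether the letters go with the age change was not tested, and windows of like base composition were not compared.

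In MMP high HSCs the median log2 fold change of the same genes was 0.16, and 29 of 40 lay above 0 (50.1% of all genes). The difference of the age changes was tested as an interaction term over all 13 libraries, and no member passed after adjustment. At an unadjusted interaction p of 0.05, 19 of 40 had the lower age change in MMP low cells and 0 the higher, against 2.14% and 1.90% of all genes. For Cdc7 the MMP high means were 66.9 CPM in young and 76.3 CPM in old cells, and the unadjusted interaction p was 0.000844. For Mcm6 the MMP high means were 847 and 860 CPM, and the unadjusted interaction p was 0.00225. The count of 19 went down to 12 without Young MMP low 1 and to 12 without Old MMP low 2.

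**Figure D3:**
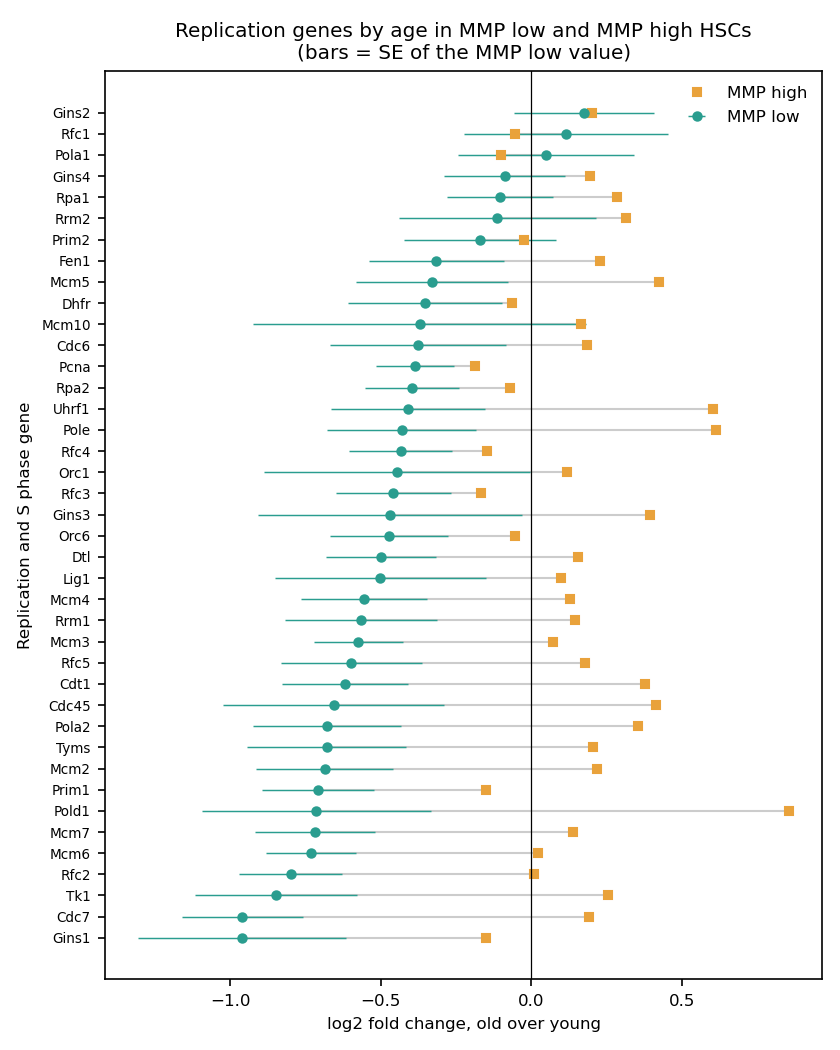
Each row is 1 of the 40 replication and S phase genes, with the log2 fold change of old over young on the x axis in MMP low HSCs (green circles, bars are SE) and in MMP high HSCs (orange squares). In MMP low cells 37 points lie below 0, and in MMP high cells 29 lie above 0.

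Of 36 genes of G2 and mitosis tested in MMP low HSCs, 0 were called, their median was -0.23, and for 0 of them did the old and young libraries stand apart. At an unadjusted p of 0.05, 5 were lower and 0 higher, against 3.18% and 3.99% of all genes. In MMP high HSCs 34 of the 36 lay above 0 (50.1% of all genes), with a median of 0.35. At an unadjusted interaction p of 0.05, 8 had the lower age change in MMP low cells and 0 the higher (2.14% and 1.90% of all genes). The cyclin-dependent kinase Cdk1, which drives entry into mitosis, had 121, 61.4 and 84.1 CPM in young and 73.6, 31.4 and 44.3 CPM in old libraries (edgeR adjusted p = 0.543). The median in MMP low HSCs turned to 0.12 without Young MMP low 1 and was -0.58 without Old MMP low 1. Among the libraries with names starting with N, which leave out both, it was -0.27. Its direction thus depends on which libraries are kept.

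The list of genes reported to be higher in aged HSCs held 14 of the 25 genes that rose. Of its 57 members tested, 14 were called higher and 0 lower, against 0.146% and 0.0292% of all genes. Above 0 lay 51 of them, against 52.8% of all genes, and the median log2 fold change was 1.69. The old libraries lay entirely above the young ones for 42 members, against 6.52% of all genes. The list was put together with earlier results of these data known, so its direction is not independent evidence. Its summed level was 3200 to 3490 CPM in young and 5530 to 6370 CPM in old libraries. Its median ranged from 1.63 to 1.74 when 1 MMP low library was left out, while the count of calls went from 14 down to 7 without Old MMP low 2, to 9 without Young MMP low 2 and to 8 when Young MMP low 3 was left out. Of the 23 tested genes reported to be lower in aged HSCs none was called, and their median was -0.05, running from -0.25 (without Old MMP low 3) to 0.02 (without Young MMP low 1). Flt3, the receptor of early lymphoid and multipotent progenitors, had 11.2, 29.0 and 15.8 CPM in young and 6.5, 5.91 and 13.9 CPM in old libraries, which overlap (edgeR adjusted p = 0.692).

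**Figure D4:**
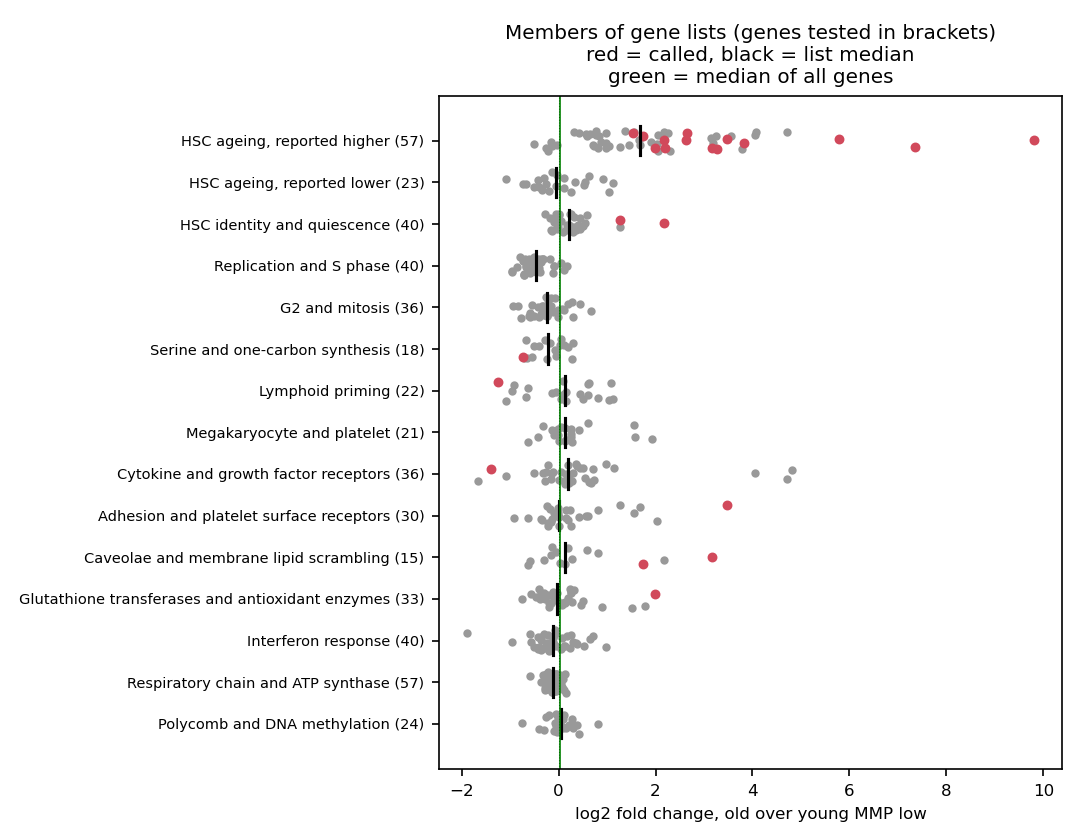
Each point is 1 tested gene of a list, placed by its log2 fold change of old over young MMP low HSCs on the x axis, with the number of genes tested beside the list's name. The list of genes reported higher in aged HSCs has its median (black bar) at 1.69, replication genes at -0.47, and the median of all genes (green line) is 0.03.

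Of 40 genes of HSC identity and quiescence tested, Sult1a1 and Mycn, described above, were called higher and 0 lower, with a median of 0.21 (0.11 without Young MMP low 1 and 0.09 without Old MMP low 2). Trim47, a ubiquitin ligase, had 142, 154 and 224 CPM in young and 374, 502 and 370.2 CPM in old libraries without overlap (log2 1.26 ± 0.28, edgeR adjusted p = 0.123). Mllt3, a regulator of HSC maintenance, had 81.3, 125 and 97.1 CPM against 149.9, 193 and 111 CPM, which overlap (edgeR adjusted p = 0.654). Among 24 polycomb and DNA methylation genes none was called. Ezh1, a histone methyltransferase of the polycomb complex, was at 56.3, 73.6 and 63.9 CPM in young and 96.0, 147 and 98.5 CPM in old libraries (log2 0.82, edgeR adjusted p = 0.322).

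Lineage genes differed by single members. Of 22 lymphoid priming genes Ctla2a was the one called. The list's median was 0.13, but -0.18 without Old MMP low 1, -0.02 without Young MMP low 3, -0.25 among the libraries of the N series (names starting with N, 2 of each age) and -0.06 with the replicate number as a block. It was at its highest, 0.39, without Young MMP low 2. Its summed level was 2510 to 2560 CPM in young and 1390 to 1680 CPM in old libraries. Ctla2a and Ctla2b, whose levels are given above, make up most of that sum in every library. The rest of the sum overlaps between the ages. Of 21 megakaryocyte and platelet genes none was called, with a median of 0.14 that ran from -0.00251 (without Old MMP low 3) to 0.24 (without Old MMP low 2). Itga2b, the platelet integrin subunit, had 57.8, 102 and 82.8 CPM in young and 66.5, 139 and 165 CPM in old libraries, which overlap (edgeR adjusted p = 0.766).

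Among 36 cytokine and growth factor receptor genes, a list that also holds some ligand subunits, Ebi3 was the one called. Of those that did not pass, 3 stood low in the young libraries. The BMP receptor Bmpr1a had 0.698, 0.720 and 0 CPM in young and 11.2, 9.01 and 20.6 CPM in old libraries (log2 4.81 ± 0.94, edgeR adjusted p = 0.0726). The oxysterol receptor Gpr183 had 8.49, 0.411 and 3.63 CPM in young and 96.1, 75 and 35.3 CPM in old libraries (edgeR adjusted p = 0.181). The oncostatin M receptor Osmr had 0.233, 0.720 and 0 CPM in young and 14.4, 5.41 and 6.30 CPM in old libraries (edgeR adjusted p = 0.206). Each separates the ages, while the old libraries spread widely among themselves.

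Genes of the respiratory chain and ATP synthase, which build and use the membrane potential that the sort followed, were not called in either direction. Of 57 nuclear genes tested, 46 lay below 0 and the median was -0.11, while 52.8% of all genes lay above 0. Without Young MMP low 1 the median was 0.10, so the direction depends on that library. Ndufs8, a complex I subunit, had 198, 169 and 184 CPM in young and 145, 151 and 150 CPM in old libraries (log2 -0.30 ± 0.13, edgeR adjusted p = 0.680). Ndufs7 beside it in complex I had a log2 fold change of -0.33 (edgeR adjusted p = 0.678). The 37 symbols of the mitochondrial genome were at 0 in all libraries and could not be tested. Of 40 interferon response genes none was called, with a median of -0.12 (-0.05 without Young MMP low 3), and Ifi27 had 104, 78.7 and 95.1 CPM against 57, 56.4 and 73.3 CPM (edgeR adjusted p = 0.352).

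Gate and efflux genes were examined next, to see whether the sorted cells differed by age. Slamf1, which encodes CD150, had 65.2, 45.9 and 46.0 CPM in young and 90.2, 101 and 95.5 CPM in old libraries without overlap (log2 0.87 ± 0.18, edgeR adjusted p = 0.0987). Kit had a log2 fold change of 0.02 and Ly6a, which encodes Sca1, one of 0.10 (edgeR adjusted p = 0.986). Cd48 was at or below 21.1 CPM in all 6 libraries (log2 -0.30, edgeR adjusted p = 0.984). The efflux pumps Abcb1a (log2 0.53, edgeR adjusted p = 0.907), Abcb1b (0.47, 0.774), Abcg2 (-0.13, 0.951) and Abcc1 (0.10, 0.995) were not called. The Y-linked genes Ddx3y, Uty, Eif2s3y and Kdm5d had counts in all 6 libraries, and Xist stood at 0.748 to 4.10 CPM. Nnt, which is deleted in part in C57BL/6J mice, had 44.2, 52.6 and 49.3 CPM in young and 23.8, 33.1 and 56.5 CPM in old libraries (edgeR adjusted p = 0.865).

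Markers of other cells were summed beside these results. The sums of granulocyte and monocyte, erythroid, T and NK, mast and basophil, and B and plasma cell markers overlap between the ages, the last running from 92.1 to 782 CPM in young and from 83.9 to 1500 CPM in old libraries. None of their members was called. The 14 genes of stroma and endothelium summed to 103 to 177 CPM in young and 225 to 312 CPM in old libraries, with no overlap. Vwf, which HSCs also express and whose levels are given above, makes up most of that sum in every old library. The rest of the sum overlaps between the ages. Of the 7 members tested 3 lay above 0 and 4 below, with a median of -0.02. When 1 MMP low library was left out the median was between 0.07 and 1.51, but those fits filtered the genes anew. The members tested could thus differ, and the medians need not be of the same genes. The endothelial sialomucin Emcn, also on HSCs, stood lower in every old library, with 34.4, 38.4 and 38.6 CPM against 20.002, 28.4 and 19.8 CPM (log2 -0.70, edgeR adjusted p = 0.718). The lipoprotein lipase gene Lpl, named like Emcn after its values were seen, had 5.93, 4.73 and 3.52 CPM against 20.8, 28.4 and 14.9 CPM (edgeR adjusted p = 0.160), and the osteoblast gene Bglap was at 0 in all 6. The part of these cells in the rise of Selp and other endothelial genes was not tested.

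In MMP high HSCs the same age contrast, on libraries of its own but in the same fit, called 25 of 17125 genes (0.146%). Of these, 23 were higher (0.134%) and 2 lower (0.0117%). Without 1 library the count of 25 became 9 (Old MMP high 2 or 3), 10 (Young MMP high 2), 14 (Old MMP high 1), 15 (Young MMP high 3) or 40 (Young MMP low 3), and 17 to 33 without any other. Of the 30 genes called in MMP low HSCs, 15 were called there too, which is 50% of the MMP low calls and 60% of the MMP high calls. All 30 had the same sign in MMP high HSCs, against 56.5% of all genes, and 29 had an unadjusted p under 0.05 there (7.61% of all genes). Both contrasts share the estimate of each gene's spread, so their p-values are not independent. Across all 17125 genes, which are not independent replicates, the log2 fold changes of both contrasts correlated with r = 0.213 (Spearman 0.168). The age change was the larger one in MMP low HSCs for 23 of the 30. Since the 30 were chosen by their size in MMP low HSCs, that count has no test.

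The test of the difference itself called no gene. The interaction of age and MMP had 0 genes at an adjusted p of 0.05 by edgeR, 693 at an unadjusted p of 0.05 (4.05%), 2 by DESeq2 and 0 by limma-voom. Unadjusted, 11 of the 30 had an interaction p under 0.05. Because the MMP low libraries that chose the 30 also enter the interaction, that count and the interaction p of single called genes are descriptions. Nupr1 went from 22.0 to 63.6 CPM in MMP high HSCs, a log2 fold change of 1.53 ± 0.19 against 2.66 ± 0.22 in MMP low HSCs, and the unadjusted interaction p was 0.00138. Rps4l went from 28.0 to 16.1 CPM in MMP high HSCs, -0.80 ± 0.22 against -2.30 ± 0.24, and the unadjusted interaction p was 0.000335. Prkcz, at 0 in young MMP low libraries, was present at 0.860 CPM in young and 1.41 CPM in old MMP high libraries, and the unadjusted interaction p was 0.000198. Sult1a1 stood at 9.13 and 31.7 CPM in young and old MMP high HSCs and at 55.4 and 251 CPM in young and old MMP low HSCs, with age changes of 1.79 ± 0.30 and 2.18 ± 0.32. Plscr2 (3.58 ± 0.34), Gstm2 (2.08 ± 0.26), Clu (2.81 ± 0.35) and Abca4 (2.52 ± 0.36) had larger log2 fold changes in MMP high than in MMP low HSCs.

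**Figure D5:**
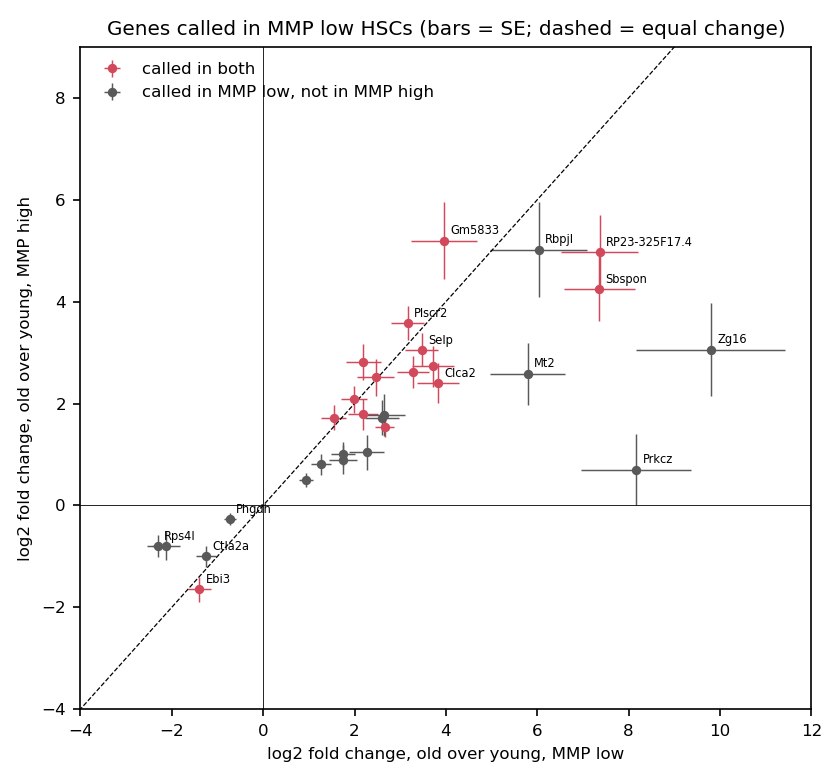
The 30 genes called in MMP low HSCs are placed by their log2 fold change of old over young in MMP low (x axis) and MMP high HSCs (y axis), with SE as bars and a dashed line of equal change. All 30 have the same sign in both, 15 are called in both (red), and 23 have the larger change in MMP low HSCs.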

How the data were processed

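RNA of sorted mouse HSCs was sequenced in 13 libraries, and 6 of them enter the age comparison in MMP low cells. Each deposited file lists 43280 gene symbols with their raw counts, which are whole numbers. Per the submitters' processing notes, reads were handled with Trim Galore, STAR 2.7 and GRCm38. No counting tool, strand setting or annotation is given in the sources used here. Even numbers made up 51.2% to 53.4% of counts from 1 to 100 in the MMP low libraries, so 1 fragment may have given more than 1 count, and without molecular identifiers PCR copies were counted too.

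The analysis used edgeR 4.0.16 in R 4.3.3. filterByExpr by group (minimum count 10, minimum total 15) kept 17125 genes. TMM scaling was followed by 1 robust quasi-likelihood model with 4 group means, fitted to the 13 libraries together (9 residual degrees of freedom). Genes were called at a Benjamini-Hochberg adjusted p of 0.05 over the 17125 genes, two-sided. Log2 fold changes are edgeR's, with its prior count, and carry standard errors (SE). The scripts were tested on simulated data. Alternatives used limma 3.58.1 and DESeq2 1.42.0, other filters and scalings, a term for the replicate number or the library series (first letter of the library name, whose meaning the labels do not give), fewer libraries, and each library left out. Genes were filtered anew in each fit with fewer libraries, so the genes tested and the list members behind a median can differ between fits. Every called gene is named, with up to 4 members of each list described (called first, then by smallest p), the gate, efflux and sex-linked genes, Nnt, close relatives of called genes and overlapping genes. The comparison and the gene lists were chosen with earlier results of these data known, so lists are described by counts and medians only. Positions are from GENCODE M21 (GRCm38), which matched 93.7% of the genes tested once, and promoter sequences are from RefSeq (GRCm38.p6).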

Additional observations from a re-analysis of the deposited data

How the results depend on the processing

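Of 30 calls in MMP low HSCs (25 higher, 5 lower), DESeq2 gave 197 (144 and 53) and shared all 30, limma-voom 48 (40 and 8) and shared all 30, and no filter on low counts 204 (158 and 46) and shared 29. The 6 MMP low libraries alone gave 21 (2 of them lower) and shared 16, and the N series alone, 2 libraries against 2, gave 5 (5 and 0). Leaving out 1 library gave 10 to 46 calls (9 to 38 higher, 1 to 8 lower). In MMP high HSCs, 25 calls (23 and 2) became 211 (152 and 59) with no filter and 154 (117 and 37) with DESeq2, limma-voom gave 1 lower call, and leaving out 1 library gave 9 to 40 (9 to 37 higher, 0 to 4 lower). The interaction went from 0 calls to 58 with no filter and 2 with DESeq2. Same-numbered young and old MMP low libraries had deviations correlated at 0.284, -0.07 and 0.03, so the numbers were not taken to pair them. Young 3 with Old 2 had 0.237 and Young 2 with Old 3 had 0.0605, each pair within 1 library series. Pairs across the series had -0.272 to 0.0189. A term for the library series gave 30 calls (26 and 4), 28 of them among the 30. Gm5833 and Ebi3 were lost there (edgeR adjusted p = 0.0502 and 0.0521). With the replicate number as a block, 37 genes were called (31 and 6), 26 of the 30 among them, with 27 in MMP high HSCs (25 and 2) and 0 for the interaction. Calls of the list reported higher in aged HSCs went from 14 to 33 with no filter, 32 with DESeq2 and 4 in the N series. Replication genes lower at an unadjusted p of 0.05 went from 21 to 11 in the 6 libraries alone and 5 in the N series.

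Genes near 0 turned sign, none of them called. When 1 library was left out, log2 fold changes ran from -0.152 (without Old MMP low 3) to 0.118 (without Old MMP low 1) for Kit, from -0.0892 (Young MMP low 2) to 0.516 (Young MMP low 1) for Ly6a, and from -0.914 (Old MMP low 1) to 0.236 (Young MMP low 1) for Cd48. They ran from -0.195 (Old MMP low 2) to 0.0211 (Young MMP low 1) for Abcg2 and from -0.262 (Young MMP low 1) to 0.668 (Young MMP low 3) for Abcc1. For Y-linked genes they ran from -0.111 (Young MMP low 1) to 0.367 (Young MMP low 2) for Ddx3y, from -0.208 (Young MMP low 3) to 0.517 (Young MMP low 1) for Uty, and from -0.284 (Young MMP low 3) to 0.0547 (Young MMP low 2) for Eif2s3y. In the N series Abcg2 (0.0363), Abcc1 (-0.241) and Ddx3y (-0.175) turned too. The cause was not tested. Other single-gene values kept their direction, 1463 without a change of call, while 190 lost and 40 gained the call.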
